A study of Mus musculus with 8 samples.

Results

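The 10 genes described here, Runx1, Runx2, Runx3, Sp7, Sox5, Sox6, Sox9, Dlx5, Mef2c and Scx, encode transcription factors of the skeletal lineages. They were taken by name, and all 10 were found among the 28956 genes of the count tables. The cells were bone stromal cells of the femur from C57BL/6 wild-type female mice at 12 weeks of age, profiled by droplet-based single-cell RNA sequencing. In the Fracture group the left leg had been broken by three-point bending at 10 weeks and stabilized with an intramedullary nail, and cells were taken at post-fracture day 14. The Control group was unfractured and of the same age, and in both groups cells carrying blood lineage antigens, CD45 or CD117 had been depleted with magnetic beads. Each group had 2 cell preparations with 2 libraries each, so every comparison below rests on n = 2 preparations per group. The labels do not say that the preparations came from separate animals, so p-values measure only the spread between preparations, which may be technical.

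These factors are the switches that commit mesenchymal cells to bone, cartilage or tendon. Runx2 is needed for osteoblasts to form, acts before the zinc finger factor Sp7 (osterix), and also drives the late maturation of chondrocytes, while the homeobox factor Dlx5 promotes the expression of Runx2 and Sp7. Sox9 starts and maintains the cartilage programme and works there with Sox5 and Sox6, which bind DNA beside it on the enhancers of cartilage matrix genes. Runx3 and Runx1 are relatives of Runx2 with roles in cartilage and blood, Mef2c is a MADS-box factor of maturing chondrocytes, osteocytes, muscle and vessels, and Scx (scleraxis) marks tendon and ligament progenitors. A fracture at this stage heals through a soft cartilage callus that is replaced by bone, so cartilage and bone cells lie side by side.

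The RUNX factors bind the core sequence ACCACA, and all 3 genes of the family carry a pair of these units near a transcription start. The stretches are shown because they are the sequence that Runx1, Runx2 and Runx3 have in common, in capitals where they match the unit, 5′ to 3′ on the strand of the gene, from RefSeq on GRCm38.p6.
Runx1, chr16:92826025-92826054, minus strand: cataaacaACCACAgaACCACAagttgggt
Runx2, chr17:44814583-44814612, minus strand: cacaaacaACCACAgaACCACAagtgcggt
Runx3, chr4:135120503-135120532, plus strand: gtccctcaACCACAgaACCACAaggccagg
An identical run of 18 bases, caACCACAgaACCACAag, lies 26 bases after the start in Runx1, 21 bases after it in Runx2 and 136 bases before it in Runx3. Windows of 300 bases around the start, 250 before and 50 after, were searched on both strands for ACCACA and for the pair ACCACANNACCACA, which contains the single unit at both ends. The unit was present in 5506 of 32851 windows over all genes (16.8%), the pair in 7 windows (0.0213%) and the full run in 4. Windows were at hand for 6 of the 10 genes, some with several starts. Sox5 and Mef2c had no unit in theirs, Sox6 had 1 in each of 2 of its 6 windows, and the second windows of Runx1 and Runx3 had none. A match describes the letters of the window and not the binding of a factor.

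On GRCm38 (GENCODE M21) Runx2 lies at chr17:44495987-44814797 and Sp7 at chr15:102356606-102367182, both on the minus strand. Dlx5 lies at chr6:6877805-6882085 on the minus strand, and Mef2c at chr13:83504034-83667080 on the plus strand. The SOX genes are Sox9 at chr11:112782224-112787760, plus strand, Sox5 at chr6:143828425-144781977 and Sox6 at chr7:115470872-116038796, both minus strand. Runx1 lies at chr16:92601466-92826149 (minus strand), Runx3 at chr4:135120652-135177990 (plus strand) and Scx at chr15:76457452-76459458 (plus strand), within the span of Bop1 on the opposite strand, with 0 exonic bases shared. Exons of antisense genes overlap those of Runx1 (106 bases of Gm26626), Runx2 (519 bases of Runx2os1) and Sox5 (1330 bases of Sox5os1). The strand setting of the counting is not given in the sources used here, so reads of these partners cannot be told apart from those of the factors.

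Libraries held 56543151 to 89126291 UMIs (unique molecular identifiers, each standing for a captured transcript), and 45328 of 48903 barcodes were kept as cells. The median cell had 7711 UMIs in the Control and 11351 in the Fracture group. Libraries shared at most 23 barcodes. Cells were clustered without the 10 factors and named from marker genes as chondrocyte-like (16678 cells), osteoblast-like (6158), bone marrow stromal cell-like (BMSC-like, 6585) and fibroblast-like (1927), beside 5544 endothelial-like, 1229 smooth muscle-like and 2889 erythroid-like cells. The 6 chondrocyte markers summed to 84783 and 77852 CPM (a gene's UMI counts scaled by all UMIs of the class to the usual common total) in Control and 85147 and 86952 CPM in Fracture chondrocyte-like cells. In osteoblast-like cells the 6 osteoblast markers summed to 100290.0 and 117186 CPM in Control and 35569 and 48628 CPM in Fracture. Of them 2 were higher and 4 lower in both Fracture preparations. In fibroblast-like cells the 6 fibroblast markers summed to 18394 and 20997 CPM in Control and 6134 and 6111 CPM in Fracture. Of these 3 were higher and 3 lower in both Fracture preparations. The chondrocyte markers were also high outside cartilage, at 14992 and 11673 CPM in Control and 12459.6 and 11433 CPM in Fracture fibroblast-like cells, so that in the Fracture group they stood above that class's own markers. The same held for Fracture endothelial-like cells, with 12554 and 13114 CPM of chondrocyte and 6226 and 6223 CPM of their own 6 markers. Their part in the values of these classes was not tested.

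The BMSC-like class differed widely between the groups. Its 6 markers, among them Cxcl12 and Lepr, summed to 26792 and 27992 CPM in the Control and 1781 and 2035 CPM in the Fracture preparations, and 6 of 6 were lower in both Fracture preparations. Within the same class the summed fibroblast markers stood at 149.9 and 35.7 CPM in Control and 723 and 1086 CPM in Fracture, and the summed chondrocyte markers at 613 and 244 CPM in Control and 2244 and 2271 CPM in Fracture, where the chondrocyte sum stood above the class's own. When the libraries were clustered without integration, 81.0% of the 4332 Control but only 7.90% of the 2253 Fracture BMSC-like cells kept that name, and 44.6% of the latter were then fibroblast-like and 44.4% osteoblast-like. Of the Control and Fracture cells of the other classes, 96.0% and 99.7% of chondrocyte-like, 98.9% and 99.6% of osteoblast-like and 84.0% and 95.1% of fibroblast-like cells kept their name. The part of cell identity in the BMSC-like values below was not tested, and in summed counts of a class fewer cells of a type and less RNA per cell cannot be told apart.

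After fracture, the chondrocyte-like class held less Sox9, Sox5 and Runx3 and more Runx1, Mef2c and Scx. Its subclusters, given below, took different shares of the class in the groups, and their part in these differences was not tested. Cells assigned to the BMSC-like class held less Runx1 and Runx2 and more Sox5, Sox6, Sox9 and Scx, and no factor was called there without integration of the libraries. Within a class each gene was compared between Fracture and Control with edgeR's quasi-likelihood test on summed UMI counts, Benjamini-Hochberg adjusted over all genes tested in the class, and called at an adjusted p under 0.05. In chondrocyte-like cells Runx1, Mef2c and Scx were called higher and Runx3, Sox5 and Sox9 lower, 6 of 10 factors, where 37.1% of the 17287 genes tested were called. In osteoblast-like cells Runx1, Sox6, Sox9 and Scx were called higher and no factor lower, 4 of 10, against 15.7% of all genes. In BMSC-like cells Sox5, Sox6, Sox9 and Scx were called higher and Runx1 and Runx2 lower, 6 of 10, a share near the 53.2% of all genes called there. In fibroblast-like cells only Sox5 and Sox6 were called, both lower, 2 of 10 against 14.3%. Runx2 in chondrocyte-like cells, Sp7 and Dlx5 in each of the 4 classes, and Runx3 in the 3 classes other than chondrocyte-like cells were not called.

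**Figure D1:**
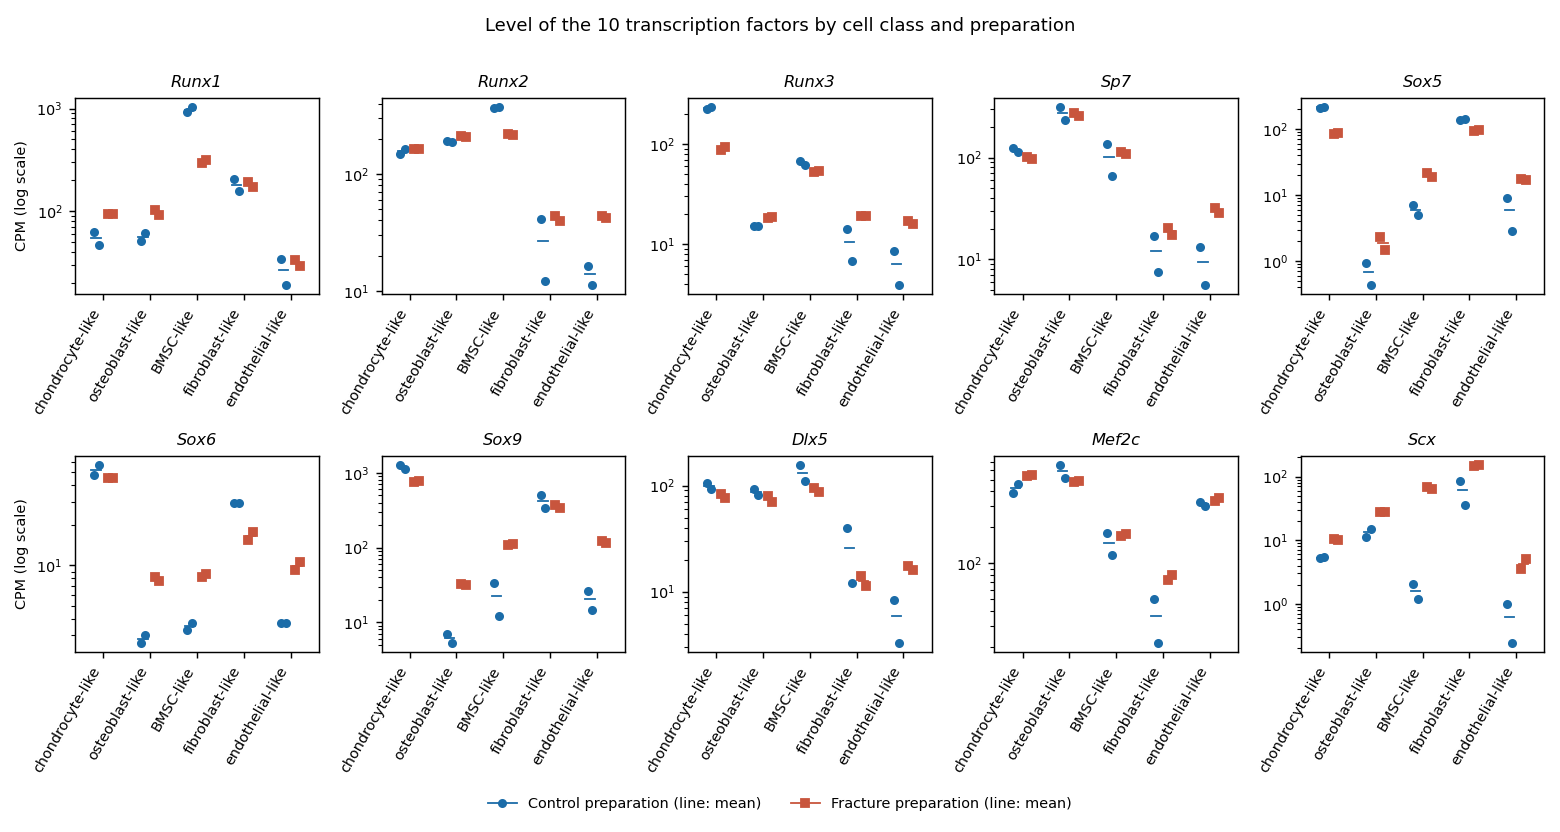
Level of each factor in CPM (log axis) in 5 cell classes, with a point for each Control and each Fracture preparation. Sox9 lies highest in chondrocyte-like cells in both groups, and Runx1 in BMSC-like cells, where the Fracture points sit below the Control points.

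Fold changes were fitted after TMM scaling and so differ from the plain ratio of the CPM values. With plain library sizes the median log2 fold change of all genes shifted by -0.15 in chondrocyte-like and -0.19 in BMSC-like cells, and the share of called genes that were higher went from 51.2% to 32.9% and from 49.5% to 35.3%. With a single Fracture preparation the test called fewer genes, and the calls that this ended are named with each factor. Differences that were not called could pass under an alternative, among them those without a Control preparation. In a fit with 1 Control preparation the spread within groups comes from the 2 Fracture preparations alone. Such a pass thus leaves out the spread between Control preparations. Of the 10 factors, 2 were called in chondrocyte-like cells without Fracture preparation 1 or without Fracture preparation 2, 0 in osteoblast-like, 5 in BMSC-like and 0 in fibroblast-like cells. Of all genes, 329 or 345 were then called in chondrocyte-like, 2 or 0 in osteoblast-like, 3446 or 3837 in BMSC-like and 23 or 13 in fibroblast-like cells. Without Control preparation 1 the factors called were 6, 5, 8 and 8, beside 7082, 3802, 9656 and 3424 of all genes, and without Control preparation 2 they were 8, 7, 7 and 6, beside 9103, 4484, 9321 and 4549. When the libraries were clustered without integration, 0 of 10 factors were called in BMSC-like cells, which then held 78 and 103 Fracture cells.

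Runx2, the first factor of the osteoblast lineage, was highest in BMSC-like cells of the Control group, at 366 and 374 CPM in the 2 preparations, and stood at 219.9 and 216 CPM in the Fracture preparations. Both Fracture values lay below both Control values, and the level fell 1.48-fold (log2 fold change -0.57 ± 0.07, SE, edgeR adjusted p = 0.00396). Without integration the Control preparations held 299 and 332 CPM and the Fracture preparations 316 and 305 CPM, a log2 fold change of 0.0397. The fall in the class was thus seen with integration only, and the part of cell assignment in it was not tested. The osteoblast-like level of Runx2 was 193 and 187 CPM in Control and 210.2 and 209 CPM in Fracture (log2 fold change 0.08 ± 0.06, adjusted p = 0.408), and that in chondrocyte-like cells 149 and 163 CPM in Control and 164 and 163 CPM in Fracture (0.22 ± 0.07, adjusted p = 0.0645). Neither of these differences passed the edgeR test. Fibroblast-like cells held less, 41.4 and 12.0 CPM in Control and 43.7 and 39.3 CPM in Fracture, where the groups overlapped. Ordered by mean level in the Control group, BMSC-like cells (369.7 ± 5.44 CPM, SD) preceded osteoblast-like (190.2 ± 3.92) and chondrocyte-like cells (156 ± 9.43), and no neighbours among these overlapped. The Control level in fibroblast-like, smooth muscle-like and endothelial-like cells overlapped between neighbours.

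The classes took different shares of the cells in the groups, and the Runx2 transcripts lay in different classes. Of all Runx2 UMIs in a preparation, BMSC-like cells held 29.7% and 41.2% in Control and 10.7% and 10.7% in Fracture, and chondrocyte-like cells 23.9% and 17.5% in Control and 67.1% and 66.6% in Fracture. The number of chondrocyte-like cells was 2066 and 675 in the Control and 6807 and 7130 in the Fracture preparations. These are cells recovered in a preparation, not cells per bone.

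Sp7, the zinc finger factor that acts after Runx2 in osteoblast formation, was highest in osteoblast-like cells. The level was 313 and 234 CPM in Control and 274 and 256 CPM in Fracture, where the groups overlapped (log2 fold change -0.10 ± 0.13, SE, edgeR adjusted p = 0.610). Chondrocyte-like cells held 124 and 113 CPM in Control and 102 and 96.4 CPM in Fracture (-0.10 ± 0.06, adjusted p = 0.233), with both Fracture preparations below both Control preparations. In BMSC-like cells the Control preparations differed from each other, at 135 and 66.2 CPM, and the Fracture values of 113 and 109 CPM lay between them. Fibroblast-like cells were low at 16.8 and 7.52 CPM in Control and 20.5 and 17.2 CPM in Fracture. Sp7 was thus called in none of the 4 classes. It passed with plain library sizes in chondrocyte-like cells, without Control preparation 2 in osteoblast-like, without Control preparation 1 in BMSC-like, and without Control preparation 1 or without integration in fibroblast-like cells. Its unadjusted p was above 0.05 in each of them, and of all genes tested 8507 in chondrocyte-like, 4847 in osteoblast-like, 8978 in BMSC-like and 4090 in fibroblast-like cells had an unadjusted p under 0.05.

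Dlx5, a homeobox factor upstream of Runx2 and Sp7, was spread over the same 3 classes. Its Control level was 156 and 109.7 CPM in BMSC-like, 105 and 93.4 CPM in chondrocyte-like and 93.8 and 81.6 CPM in osteoblast-like cells. In the Fracture preparations it was 94.3 and 88.0 CPM in BMSC-like, 84.0 and 75.9 CPM in chondrocyte-like and 79.7 and 70.5 CPM in osteoblast-like cells. No difference passed the test in these 3 classes, with edgeR adjusted p-values of 0.156, 0.174 and 0.0790. In plain CPM both Fracture values lay below both Control values in each, but a gap between 2 and 2 values is no test. In fibroblast-like cells Dlx5 was at 39.8 and 12.0 CPM in Control and 14.0 and 11.3 CPM in Fracture, with overlapping groups. Without Control preparation 2 the Dlx5 difference passed in each of the 4 classes, and without Control preparation 1 in none, with log2 fold changes of -0.0586 in BMSC-like and 0.18 in fibroblast-like cells. Without integration it turned to 0.75 in BMSC-like cells (adjusted p = 0.138).

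Mef2c, which acts in the maturation of chondrocytes and in osteocytes, was called higher in the chondrocyte-like class as a whole. In chondrocyte-like cells it stood at 388 and 461 CPM in Control and 533 and 548 CPM in Fracture, a 1.41-fold higher level (log2 fold change 0.50 ± 0.11, SE, edgeR adjusted p = 0.0281). The call was lost without either Fracture preparation and with plain library sizes, with adjusted p-values up to 0.169. In osteoblast-like cells the level was 663 and 521 CPM in Control and 481 and 489 CPM in Fracture (-0.35 ± 0.11, adjusted p = 0.104), so that the order of the classes differed between the groups. Among the 4 skeletal classes osteoblast-like cells were highest in Control (592 ± 100.3 CPM, SD), where they overlapped with smooth muscle-like cells (517 ± 32.1 CPM), and chondrocyte-like cells were highest in Fracture (540.3 ± 11.02 CPM). Endothelial-like cells, in which Mef2c serves vessel growth, held 326 and 300.02 CPM in Control and 331 and 352 CPM in Fracture. BMSC-like cells held 178 and 118 CPM in Control and 171 and 177 CPM in Fracture and fibroblast-like cells 50.5 and 21.8 CPM in Control and 72.0 and 79.3 CPM in Fracture, and neither difference passed the test (adjusted p = 0.141 and 0.121). Of 14 alternatives, Mef2c passed in 4 in osteoblast-like, 2 in BMSC-like and 3 in fibroblast-like cells.

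Sox9, the master factor of cartilage, lay mainly in chondrocyte-like cells, which held 92.8% and 93.9% of all its UMIs in the Control and 91.9% and 92.1% in the Fracture preparations. Its level there was 1274 and 1131 CPM in Control and 763 and 785 CPM in Fracture. Both Fracture values lay below both Control values, and the level was 1.4-fold lower (log2 fold change -0.49 ± 0.08, SE, edgeR adjusted p = 0.0145), a call lost without either Fracture preparation, with adjusted p-values up to 0.133. Fibroblast-like cells came next, at 504 and 338 CPM in Control and 375 and 338 CPM in Fracture, with overlapping groups. Osteoblast-like cells held 7.04 and 5.31 CPM in Control and 32.3 and 31.6 CPM in Fracture, 4.95-fold higher (2.31 ± 0.14, adjusted p = 0.00488). BMSC-like cells went from 33.0 and 12.0 CPM in Control to 107 and 113 CPM in Fracture, 5.58-fold higher (2.48 ± 0.49, adjusted p = 0.0141). Without a Fracture preparation the osteoblast-like call was lost (adjusted p up to 0.0890), as was the BMSC-like call there and without integration (up to 0.284).

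Sox9 UMIs were also found in cells that are not known to use the gene. Endothelial-like cells held 26.1 and 14.5 CPM in Control and 123 and 117 CPM in Fracture, above the BMSC-like level of the Fracture group, and erythroid-like cells held 8.68 and 1.18 CPM in Control and 25.04 and 24.0 CPM in Fracture. The 6 chondrocyte markers moved with it, from 2133 and 941 CPM in Control to 12554 and 13114 CPM in Fracture endothelial-like cells. In osteoblast-like cells the same markers summed to 3230.3 and 2731 CPM in Control and 1885 and 1856 CPM in Fracture, with 4 of 6 higher and 1 of 6, Col2a1, lower in both Fracture preparations. The part of free cartilage RNA in the Sox9 levels of classes other than chondrocyte-like cells was not tested.

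Sox5, a partner of Sox9, and Runx3 were the 2 factors whose call in cartilage held under every alternative run. Chondrocyte-like cells held 209 and 215 CPM of Sox5 in the Control and 83.0 and 87.2 CPM in the Fracture preparations, 2.25-fold lower (log2 fold change -1.17 ± 0.06, SE, edgeR adjusted p = 0.00162). The call held under each of 14 alternatives, with adjusted p-values up to 0.0444. In fibroblast-like cells Sox5 stood at 139 and 139.8 CPM in Control and 93.0 and 97.1 CPM in Fracture (-0.47 ± 0.11, adjusted p = 0.0495), and this call was lost in 6 of 14 alternatives, those without either Fracture preparation among them (adjusted p up to 0.495). After fracture the fibroblast-like level (95.1 ± 2.92 CPM, SD) was above the chondrocyte-like level (85.1 ± 2.97 CPM), whereas in Control it was below. BMSC-like cells were low, 7.11 and 4.91 CPM in Control and 21.5 and 18.5 CPM in Fracture (1.92 ± 0.21, adjusted p = 0.00327). Without integration this direction turned, to 6.46 and 3.80 CPM in Control and 0 and 1.51 CPM in Fracture. With 78 and 103 Fracture cells in the class, these Fracture values rest on very few UMIs. Osteoblast-like cells were near 0, at 0.943 and 0.439 CPM in Control and 2.30 and 1.48 CPM in Fracture.

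Sox6, the closest relative of Sox5, was not called in cartilage. Its level in chondrocyte-like cells was 47.8 and 56.4 CPM in Control and 45.3 and 45.4 CPM in Fracture, close values that did not pass the test (log2 fold change -0.05 ± 0.10, SE, edgeR adjusted p = 0.724). In fibroblast-like cells it stood at 29.4 and 29.3 CPM in Control and 15.6 and 17.7 CPM in Fracture, 1.67-fold lower (-0.74 ± 0.15, adjusted p = 0.0401), a call lost in 4 of 14 alternatives, those without either Fracture preparation among them (adjusted p up to 0.439). Sox6 was low but higher after fracture in osteoblast-like cells, 2.64 and 3.02 CPM in Control and 8.14 and 7.64 CPM in Fracture (1.42 ± 0.14, adjusted p = 0.0114), and in BMSC-like cells, 3.29 and 3.72 CPM in Control and 8.18 and 8.68 CPM in Fracture (1.46 ± 0.17, adjusted p = 0.00361). The osteoblast-like call was lost without either Fracture preparation (adjusted p up to 0.143) and the BMSC-like call without integration (up to 0.597). Sox6 also serves the maturation of red cells, and erythroid-like cells held 71.5 and 103 CPM in Control and 120.5 and 123 CPM in Fracture. They carried 12.2% and 71.8% of all Sox6 UMIs in Control and 4.89% and 6.13% in Fracture, and the erythroid markers summed to 173 and 458 CPM in Control and 1232 and 1324 CPM in Fracture chondrocyte-like cells. In the classes where Sox6 was called higher they moved with it, from 19.3 and 98.6 CPM in Control to 265 and 264 CPM in Fracture osteoblast-like cells and from 156 and 1498 CPM in Control to 2107 and 4099 CPM in Fracture BMSC-like cells. Sox6 was also called higher in endothelial-like cells (log2 fold change 1.54 ± 0.18, edgeR adjusted p = 0.00973). Its mean there was 3.69 CPM in Control and 9.86 CPM in Fracture. In smooth muscle-like cells it was called lower (-2.15 ± 0.30, adjusted p = 0.00745). The part of erythroid RNA in the Sox6 values was not tested.

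Runx3, which acts with Runx2 in chondrocyte maturation, was highest in cartilage. Chondrocyte-like cells held 224 and 235 CPM in Control and 87.2 and 94.2 CPM in Fracture, 2.29-fold lower (log2 fold change -1.19 ± 0.07, SE, edgeR adjusted p = 0.00207). The call held under each of 14 alternatives, with adjusted p-values up to 0.0466. BMSC-like cells stood at 67.9 and 61.9 CPM in Control and 52.7 and 53.3 CPM in Fracture (-0.10 ± 0.08, adjusted p = 0.362). Osteoblast-like cells held 15.1 and 15.1 CPM in Control and 18.1 and 18.5 CPM in Fracture and fibroblast-like cells 14.2 and 6.77 CPM in Control and 19.2 and 19.2 CPM in Fracture. Neither class passed the test (adjusted p = 0.164 and 0.147). Blood cells use Runx3, and in chondrocyte-like cells the 6 granulocyte markers summed to 188 and 92.4 CPM in Control and 28.1 and 23.8 CPM in Fracture, with 4 lower and 2 higher. The 4 megakaryocyte markers there fell from 202 and 47.5 CPM in Control to 10.3 and 12.3 CPM in Fracture, while the erythroid markers rose, as given above. The part of blood RNA in the Runx3 values was not tested.

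Runx1, best known from blood formation, moved in opposite directions in stroma and cartilage. BMSC-like cells held 922 and 1033 CPM in Control and 295 and 314 CPM in Fracture, 2.81-fold lower (log2 fold change -1.49 ± 0.11, SE, edgeR adjusted p = 0.00158). Without integration the values were 1161 and 1185 CPM in Control and 607 and 703 CPM in Fracture, and the call was lost (adjusted p = 0.0581). Chondrocyte-like cells went from 62.9 and 47.2 CPM in Control to 92.9 and 94.2 CPM in Fracture, 1.88-fold higher (0.91 ± 0.14, adjusted p = 0.0128), and osteoblast-like cells from 51.2 and 61.8 CPM in Control to 102 and 90.9 CPM in Fracture (0.70 ± 0.13, adjusted p = 0.0341). Both of these calls were lost without either Fracture preparation, and the osteoblast-like call also with a replicate block. Fibroblast-like cells stood at 204 and 156 CPM in Control and at 191 and 171 CPM in Fracture, with overlapping groups (adjusted p = 0.797). In BMSC-like cells the 4 megakaryocyte markers summed to 378 and 113 CPM in Control and 19.4 and 24.6 CPM in Fracture. Of the 6 granulocyte markers 4 were lower there in both Fracture preparations, while the erythroid sum was higher. In chondrocyte-like cells, where Runx1 was higher, the megakaryocyte markers fell too. The part of blood RNA in the Runx1 values was not tested.

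Scx, the tendon and ligament factor, was highest in fibroblast-like cells, with 85.4 and 36.1 CPM in Control and 145 and 152 CPM in Fracture. The groups did not overlap there, but the difference did not pass the test (log2 fold change 1.32 ± 0.40, SE, edgeR adjusted p = 0.0903). It passed in 5 of 14 alternatives, the DESeq2 test, no filter on low counts, resolution 0.2 and without either Control preparation, with adjusted p-values from 1.9e-17 to 0.337 over all of them. The largest change was in BMSC-like cells, from 2.04 and 1.19 CPM in Control to 69.4 and 63.7 CPM in Fracture (5.54 ± 0.27, adjusted p = 0.00105). This call held in each of 13 alternatives, and without integration, where Scx was too low to be tested in this class, the values were 0.374 and 0.0975 CPM in Control and 4.19 and 3.02 CPM in Fracture. Osteoblast-like cells held 11.4 and 15.2 CPM in Control and 27.4 and 27.4 CPM in Fracture, 1.97-fold higher (0.98 ± 0.18, adjusted p = 0.0322), and chondrocyte-like cells 5.20 and 5.37 CPM in Control and 10.3 and 9.93 CPM in Fracture, 2.13-fold higher (1.09 ± 0.08, adjusted p = 0.00292). Without either Fracture preparation both calls were lost, with adjusted p-values up to 0.202 and 0.0714. Both Fracture preparations stood above both Control preparations in each of the 4 classes, and endothelial-like cells, where Scx is not known to act, held 0.979 and 0.245 CPM in Control and 3.57 and 5.01 CPM in Fracture.

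**Figure D2:**
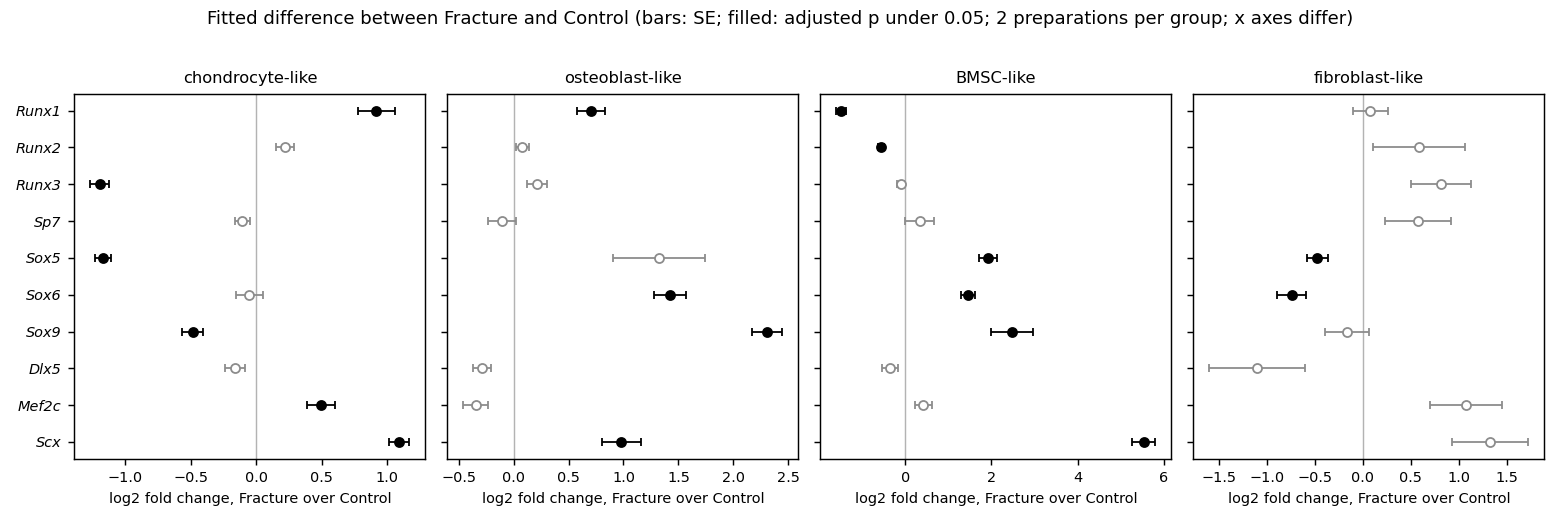
Log2 fold change of Fracture over Control for each factor in the 4 skeletal classes, with the standard error as the bar, and filled points where the edgeR adjusted p was under 0.05. Runx3 and Sox5 lie below 0 in chondrocyte-like cells, and Scx lies at 5.54 in BMSC-like cells (the horizontal axes differ between panels).

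The fracture difference itself was compared between classes with a class by group term, over 16616 genes and 6 pairs of classes, and 31 differences among the 10 factors passed. Chondrocyte-like and osteoblast-like cells differed for 5 factors (21.3% of all genes), and the difference of Sox9, first class minus second on the log2 scale, was -2.89 ± 0.29 (SE), edgeR adjusted p = 1.40e-05. Chondrocyte-like and BMSC-like cells differed for 7 factors (45.2% of all genes), with the opposite moves of Runx1 giving 2.39 ± 0.20, adjusted p = 6.64e-07. Chondrocyte-like and fibroblast-like cells differed for 4 factors (18.1%), and Runx3 gave -2.05 ± 0.22, adjusted p = 3.33e-05. Osteoblast-like and BMSC-like cells differed for 4 (36.2%), osteoblast-like and fibroblast-like cells for 4 (16.1%), and BMSC-like and fibroblast-like cells for 7 (27.1%). Chondrocyte-like minus fibroblast-like, the difference was negative for Sox5 (-0.80 ± 0.17, adjusted p = 0.00448) and positive for Sox6 (0.64 ± 0.15, adjusted p = 0.00885). Both of these were lost without either Fracture preparation, and over all alternatives their adjusted p-values reached 0.996 and 0.333. Of the differences that involve BMSC-like cells, those of Sox5 turned without integration, to 1.39 (chondrocyte-like minus BMSC-like) and -1.38 (BMSC-like minus fibroblast-like), and those of Scx in each of the 3 pairs, of Sox6 in both pairs where it passed and of Runx2 against chondrocyte-like and osteoblast-like cells no longer passed. The turned Sox5 values rest on very few Fracture UMIs in BMSC-like cells. Without a Fracture preparation fewer factors passed in each pair. The share of all genes that passed in these fits is not given here, so that fall is not read as a result about the factors.

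The chondrocyte-like class held its subclusters in different shares in the groups, so the factors were also followed inside them. Cells led by Serpina1a made up 40.5% and 43.4% of the class in Control and 12.3% and 12.4% in Fracture, whereas cells led by Chrdl2 made up 10.9% and 8.0% in Control and 28.9% and 29.4% in Fracture. The part of these shifts in the class values was not tested. Of 8 subclusters, 4 more were followed, hypertrophic-like cells led by Mmp13 and Spp1, hypertrophic-like cells led by Aldh1a3 and Col10a1, cells led by Slc40a1, Myoc and Prg4, and proliferating-like cells led by Top2a. The remaining pair, 487 cells led by the stromal and osteoblast genes Cxcl12, Car3 and Bglap2 and 148 cells led by haemoglobin genes, held 14 and 13 cells in Control preparation 2 and was not compared. Called factors numbered 4 in the Chrdl2-led (19.2% of all genes), 2 in the Serpina1a-led (7.61%), 2 in the Mmp13-led (8.86%), 7 in the Aldh1a3-led (21.6%), 7 in the Slc40a1-led (17.9%) and 3 in the proliferating-like cells (10.2%). Without a Fracture preparation fewer factors were called in each subcluster. The share of all genes called in these fits is not given here, so that fall is not read as a result about the factors. The names and leading genes come from the pooled cells, most of them Fracture cells. Control and Fracture cells numbered 279 and 4063 in the Chrdl2-led, 206 and 2508 in the Mmp13-led and 293 and 2369 in the Aldh1a3-led subcluster. Marker levels by group are not given for the subclusters. Some Control values rest on few cells, the fewest being 54 in the Chrdl2-led and 57 in the proliferating-like cells of Control preparation 2.

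Runx3 was called lower in each of the 6 subclusters compared. The widest gap was in Slc40a1-led cells, with 222 and 274 CPM in Control and 71.6 and 72.0 CPM in Fracture (log2 fold change -1.64 ± 0.13, SE, edgeR adjusted p = 0.00149). The narrowest was in Serpina1a-led cells, with 292 and 307 CPM in Control and 197 and 215 CPM in Fracture (-0.44 ± 0.09, adjusted p = 0.0496). Each of the 6 calls was lost without Fracture preparation 1. Those in Serpina1a-led, Mmp13-led, Aldh1a3-led and proliferating-like cells were also lost with a replicate block. Sox5 was called lower in 4 subclusters, among them the Aldh1a3-led hypertrophic-like cells (111 and 115 CPM in Control and 47.7 and 51.8 CPM in Fracture, -1.17 ± 0.10, adjusted p = 0.00236), where the call also held without any 1 preparation. In Serpina1a-led cells, which carried the highest Sox5 level after fracture, it was not called (273 and 273 CPM in Control and 221 and 235 CPM in Fracture, adjusted p = 0.214). Sox9 was called lower in Aldh1a3-led (1209.9 and 1039.5 CPM in Control and 771 and 830.3 CPM in Fracture) and Slc40a1-led cells (985 and 1005 CPM in Control and 526 and 539 CPM in Fracture) and not in Serpina1a-led cells (1629 and 1394 CPM in Control and 1337 and 1323 CPM in Fracture, adjusted p = 0.585). Nor was it called in Chrdl2-led, Mmp13-led and proliferating-like cells (edgeR adjusted p = 0.0939, 0.188 and 0.0867). Both Sox9 calls were lost without either Fracture preparation, and the Aldh1a3-led call also with a replicate block.

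The factors of maturation and bone behaved differently between subclusters. Mef2c was highest in Aldh1a3-led hypertrophic-like cells, with 1143 and 1221 CPM in Control and 1012 and 1063 CPM in Fracture, and was not called there (edgeR adjusted p = 0.215). It was called higher in Slc40a1-led cells, 49.1 and 51.8 CPM in Control and 143 and 163 CPM in Fracture (log2 fold change 1.76 ± 0.12, SE, adjusted p = 0.00103), and in proliferating-like cells (0.84 ± 0.11, adjusted p = 0.0133). Mef2c was not called in Chrdl2-led (-0.30, adjusted p = 0.288), Mmp13-led (-0.02, adjusted p = 0.962) or Serpina1a-led cells (0.32, adjusted p = 0.0639). Aldh1a3-led cells made up 10.3% and 12.0% of the class in Control and 17.6% and 16.5% in Fracture. The part of this shift in the Mef2c level of the class was not tested. Sp7 was called lower in Chrdl2-led (163 and 152 CPM in Control and 114 and 109 CPM in Fracture), Serpina1a-led (137 and 122 CPM in Control and 91.2 and 84.9 CPM in Fracture) and Aldh1a3-led cells (135 and 114 CPM in Control and 88.1 and 82.9 CPM in Fracture), although it was not called in the class as a whole. Runx1 was called higher in Aldh1a3-led cells, 24.7 and 20.9 CPM in Control and 61.2 and 61.6 CPM in Fracture (1.43 ± 0.12, adjusted p = 0.00219), a call that also held without any 1 preparation, and in Slc40a1-led and proliferating-like cells. Runx2 and Dlx5 were called higher in Slc40a1-led cells (0.66 ± 0.10 and 0.62 ± 0.16), and Dlx5 was called lower in Aldh1a3-led cells (-0.76 ± 0.11). Scx was called higher in Chrdl2-led and Aldh1a3-led cells, and Sox6 was called in none of the 6. Apart from Runx1 in Aldh1a3-led cells, the calls named here for Mef2c, Sp7, Runx1, Runx2, Dlx5 and Scx were lost without either Fracture preparation, and that of Scx in Chrdl2-led cells also without Control preparation 1.

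**Figure D3:**
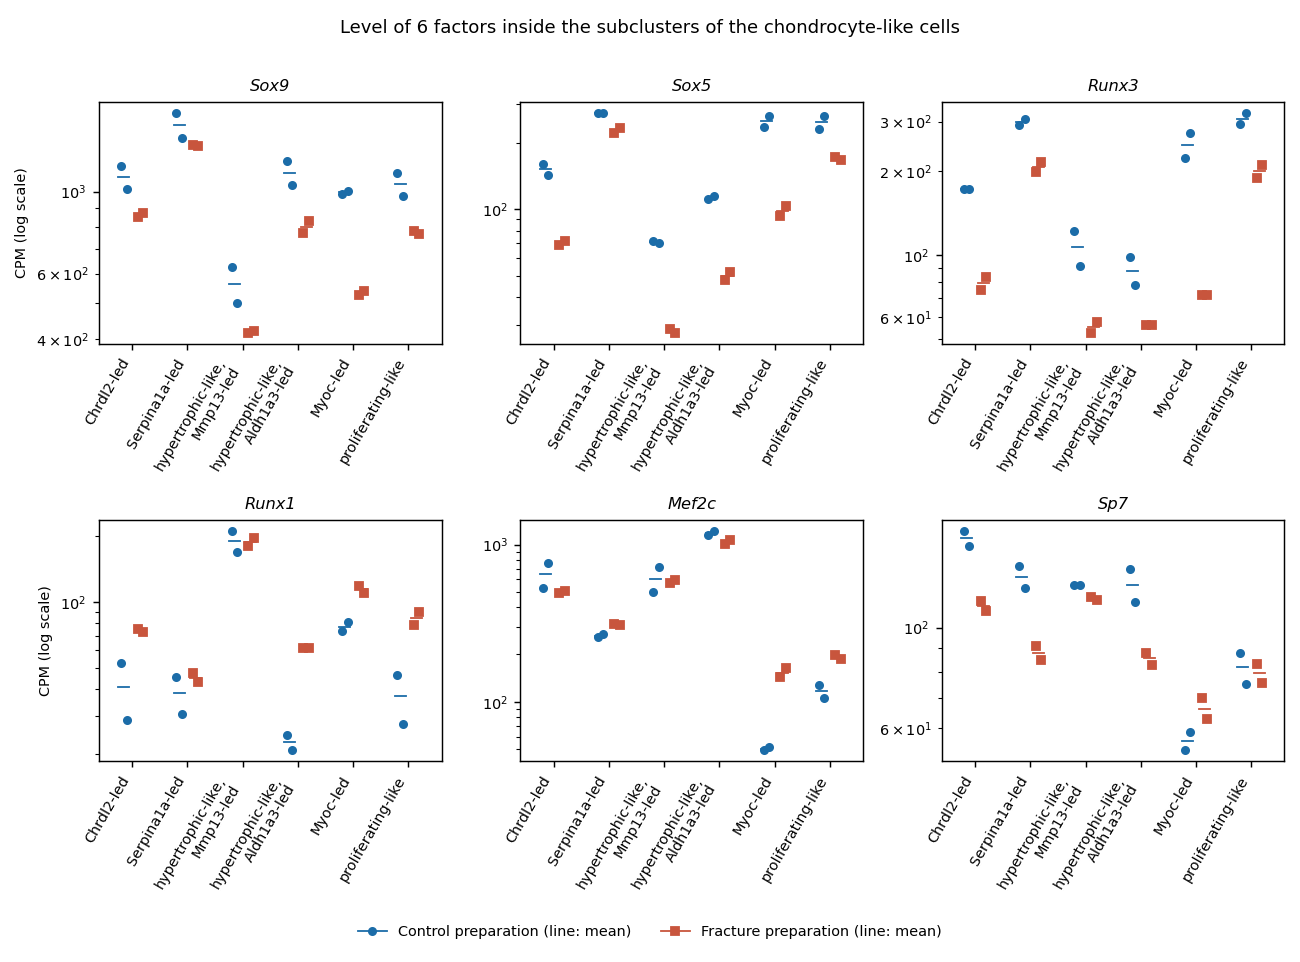
Level of Sox9, Sox5, Runx3, Runx1, Mef2c and Sp7 in CPM (log axis) in 6 subclusters of the chondrocyte-like cells, with a point for each Control and each Fracture preparation. The Fracture points of Runx3 lie below the Control points in each subcluster, and Mef2c peaks in the Aldh1a3-led hypertrophic-like cells in both groups.

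The BMSC-like cells were divided in the same way. A subclass named dpMSC-like (diaphyseal mesenchymal stromal cell-like) from its 5 markers Lepr, Adipoq, Cxcl12, Esm1 and Lpl made up 66.8% and 72.6% of the class in Control and 41.4% and 41.99% in Fracture. A subcluster led by Mmp9 that carried too few markers for a name made up 31.0% and 26.3% in Control and 42.4% and 41.7% in Fracture, and cycling cells led by Top2a 1.9% and 1.1% in Control and 15.6% and 16.2% in Fracture. The name dpMSC-like rests mainly on the Control cells. Its 5 markers summed to 46597 and 40108 CPM in Control and 2562 and 3184 CPM in Fracture, and 5 of 5 were lower in both Fracture preparations, with Lepr at 1756 and 1897 CPM in Control and 49.996 and 61.5 CPM in Fracture. In the same cells the fibroblast markers stood at 37.3 and 12.8 CPM in Control and 841 and 1124 CPM in Fracture, and the chondrocyte markers at 457 and 111 CPM in Control and 2350.5 and 2548 CPM in Fracture. Without integration 98.9% of the 2992 Control but only 13.2% of the 940 Fracture dpMSC-like cells were BMSC-like, and 81.0% of the latter were fibroblast-like. In Mmp9-led cells the 6 BMSC markers stood at 6798 and 7527 CPM in Control and 1376 and 1382 CPM in Fracture, the chondrocyte markers at 823 and 472 CPM in Control and 1712 and 1870.2 CPM in Fracture, and the erythroid markers at 58.5 and 155 CPM in Control and 399 and 1349.8 CPM in Fracture. Without integration 60.2% of the 1385 Control and 84.5% of the 1083 Fracture Mmp9-led cells were osteoblast-like. The Mmp9-led values also take in 260 cells of the osteoblast-like class. The part of cell identity in the differences below was not tested.

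In dpMSC-like cells 8 of 10 factors were called, 6 higher and 2 lower, against 53.6% of all genes, and in Mmp9-led cells 7 of 10, 3 higher and 4 lower, against 29.0%.

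Runx1 fell in both, from 1288 and 1293 CPM in Control to 354 and 399 CPM in Fracture in dpMSC-like cells (log2 fold change -1.53 ± 0.12, SE, edgeR adjusted p = 0.000837) and from 468 and 485 CPM in Control to 268 and 279 CPM in Fracture in Mmp9-led cells (-0.66 ± 0.08, adjusted p = 0.00520). Runx2, higher in the Mmp9-led cells in both groups, fell there from 493 and 510.4 CPM in Control to 346 and 372 CPM in Fracture (-0.34 ± 0.08, adjusted p = 0.0318) and in dpMSC-like cells from 279 and 314 CPM in Control to 120.4 and 117 CPM in Fracture (-1.08 ± 0.10, adjusted p = 0.00127). In the dpMSC-like cells that were BMSC-like without integration Runx2 was at 281 and 315 CPM in Control and 254 and 248 CPM in Fracture. It was at 111 and 105 CPM in the other Fracture cells. The Fracture cells that were BMSC-like had clustered with Control cells in that step, so the part of assignment in the difference was not tested. Dlx5 was called lower in Mmp9-led cells only, from 274 and 225 CPM in Control to 147 and 143 CPM in Fracture (-0.64 ± 0.11, adjusted p = 0.0123), but whether the subclasses differed was not tested. Sp7 was called higher in dpMSC-like cells, from 29.4 and 19.4 CPM in Control to 66.9 and 54.2 CPM in Fracture (1.56 ± 0.23, adjusted p = 0.00452), a call lost without Fracture preparation 1 (adjusted p = 0.0534), and was not called in Mmp9-led cells, with 279 and 187 CPM in Control and 183 and 179 CPM in Fracture (adjusted p = 0.397).

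Scx differed in dpMSC-like cells as assigned with integration. The Control preparations held 3 Scx UMIs in all and the Fracture preparations 1053, with 0.355 and 0 CPM in Control and 108 and 106 CPM in Fracture. The ratio of the pooled shares was 605, with an exact 95% counting interval of 206 to 2937 that covers counting error only. Of the 1053 Fracture UMIs, 501 and 551 lay in the cells that were given another name than BMSC-like without integration. The 51 and 73 Fracture cells that kept the BMSC-like name, which had clustered with Control cells, held 1 and 0. The part of cell assignment in the Scx difference was not tested. Runx1 was at 1299 and 1294 CPM in the Control and 789 and 847 CPM in the Fracture cells that kept the name, again lower after fracture. Sox9 was at 29.1 and 7.29 CPM in Control and 53.5 and 37.98 CPM in Fracture cells that kept it, against 179.5 and 198 CPM in the other Fracture cells. The Sox9 values of the Fracture cells that kept the name rest on 16 and 17 UMIs. In Mmp9-led cells Scx went from 4.23 and 3.50 CPM in Control to 18.9 and 19.7 CPM in Fracture (log2 fold change 2.44 ± 0.19, SE, edgeR adjusted p = 0.00227), and this call held without any 1 preparation. Sox9 was called higher in dpMSC-like cells, from 30.1 and 7.28 CPM in Control to 171 and 184 CPM in Fracture (3.50 ± 0.66, adjusted p = 0.00974), a call lost without either Fracture preparation (adjusted p up to 0.0752), and in Mmp9-led cells, from 33.4 and 20.5 CPM in Control to 48.0 and 44.2 CPM in Fracture (0.91 ± 0.23, adjusted p = 0.0384). Sox5, Sox6 and Mef2c were also called higher in dpMSC-like cells (2.37 ± 0.31, 1.93 ± 0.27 and 1.49 ± 0.15). In the cells that kept the BMSC-like name the direction of Sox5 turned, from 6.85 and 4.00 CPM in Control to 0 and 2.23 CPM in Fracture, where it rests on 0 and 1 UMIs, against 27.7 and 26.6 CPM in the other Fracture cells. Sox6 in these cells rests on 1 and 3 Fracture UMIs, and Mef2c was at 36.9 and 29.4 CPM in Control and 60.2 and 67.03 CPM in Fracture, on 18 and 30 Fracture UMIs. Without a Fracture preparation fewer factors were called in both subclasses. The share of all genes called in these fits is not given here, so that fall is not read as a result about the factors.

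**Figure D4:**
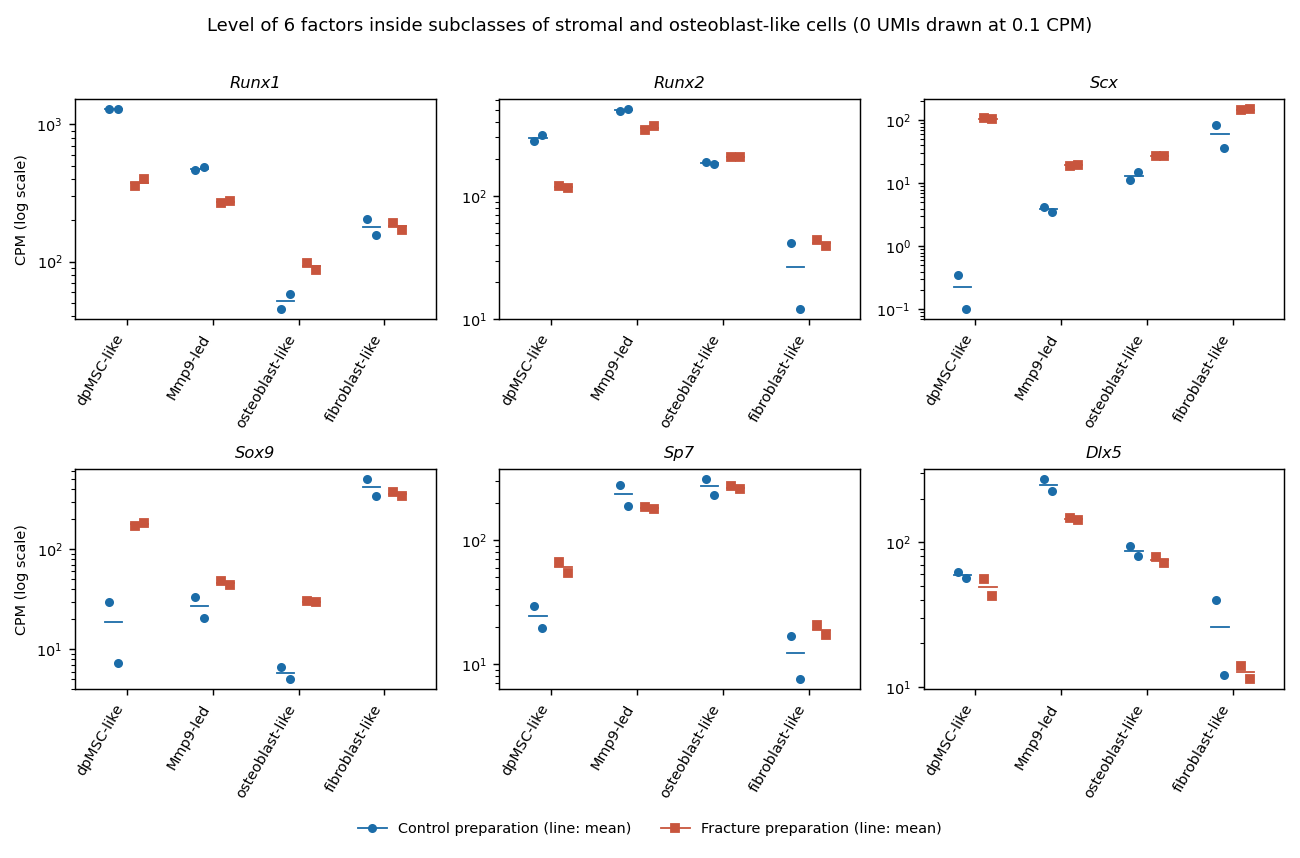
Level of Runx1, Runx2, Scx, Sox9, Sp7 and Dlx5 in CPM (log axis, a level of 0 drawn at 0.1 CPM) in dpMSC-like, Mmp9-led, osteoblast-like and fibroblast-like cells, with a point for each preparation. Scx lies at 0.355 and 0 CPM in Control and at 108 and 106 CPM in Fracture dpMSC-like cells.

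The share of cells with at least 1 UMI of a factor was compared after each cell had been thinned to 1000 UMIs, since depth differed between the groups in both directions. The median UMI count per cell was 14266 and 18214 in Control and 12303 and 13190.5 in Fracture chondrocyte-like cells, and 18546 and 20846 in Control and 11143 and 12089 in Fracture osteoblast-like cells. It was higher after fracture in BMSC-like cells (5287 and 6788.5 in Control, 8590 and 8918.5 in Fracture) and in fibroblast-like cells (6897 and 8465 in Control, 9856.5 and 10397 in Fracture). With 2 against 2 preparations the two-sided exact permutation test cannot give a p below 0.333, so the shares describe and do not test. Sox9 was seen in 64.4% and 57.3% of the Control and 46.3% and 47.5% of the Fracture chondrocyte-like cells. In erythroid-like cells, which should lack it, the shares were 1.46% and 0.226% in Control and 2.46% and 3.21% in Fracture. Sox5 was seen in 20.96% and 19.6% of Control and 8.43% and 8.08% of Fracture chondrocyte-like cells, and Runx3 in 20.1% and 22.6% in Control and 8.52% and 9.004% in Fracture. The shares of Sox9, Sox5 and Runx3 were thus lower in Fracture chondrocyte-like cells at equal depth. At 1000 UMIs the share of cells with a UMI follows the level of the gene. It is therefore no separate result beside the lower level and does not count the cells that express the gene. Mef2c was seen in 22.6% and 30.1% of Control and 35.1% and 34.7% of Fracture chondrocyte-like cells. Without thinning Sox9 was seen in 95.6% and 93.0% of these cells in Control and 94.1% and 94.1% in Fracture, Sox5 in 84.3% and 86.7% in Control and 53.6% and 57.5% in Fracture, and Runx3 in 81.8% and 81.8% in Control and 54.5% and 58.3% in Fracture.

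In BMSC-like cells Runx1 was seen in 57.8% and 59.98% of Control and 25.6% and 26.5% of Fracture cells after thinning, and in endothelial-like cells in 2.46% and 1.13% in Control and 2.81% and 2.48% in Fracture. Runx2 was seen in 29.0% and 29.4% of Control and 21.04% and 20.95% of Fracture BMSC-like cells, and Scx in 0.0786% and 0% of Control and 5.10% and 4.77% of Fracture cells, where 0 of 1719 cells in Control preparation 2 allows a share of up to 0.175%. In osteoblast-like cells Sp7 was seen in 26.9% and 23.3% of Control and 24.0% and 24.8% of Fracture cells and Runx2 in 19.1% and 19.0% in Control and 19.1% and 17.4% in Fracture, close values in both groups. Sox9 was seen in 0.752% and 0.592% of Control and 2.97% and 2.78% of Fracture osteoblast-like cells. These shares lay within the range of those of erythroid-like cells, so no difference in positive cells is read beside the higher level found for this class by edgeR. Its share in endothelial-like cells was 1.07% and 0.644% in Control and 6.61% and 5.38% in Fracture. Scx was seen in 5.45% and 4.55% of Control and 12.4% and 14.2% of Fracture fibroblast-like cells, and in at most 0.486% of erythroid-like cells. The median UMI count of erythroid-like cells was 2932.5 and 8617 in Control and 7215 and 7232.5 in Fracture.

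Cells with both Sox9 and Runx2 were rare at this depth outside cartilage. Chondrocyte-like cells showed both in 9.29% and 8.16% of Control and 6.95% and 6.68% of Fracture cells, fewer after fracture in both preparations (exact permutation p = 0.333, the smallest that this design allows). In osteoblast-like cells the shares were 0.0579% and 0.197% in Control and 0.910% and 0.511% in Fracture, and in BMSC-like cells 1.10% and 0.233% in Control and 1.39% and 1.36% in Fracture, against up to 0.714% of erythroid-like cells. The 0 of 203 erythroid-like cells in Fracture preparation 1 allows up to 1.48%, so that neither class stood clear of the background. In fibroblast-like cells the shares were 0 of 385 and 0 of 132 cells in Control, which allow up to 0.779% and 2.27%, and 1.71% and 0.659% in Fracture, of which the first lay above and the second below that limit of 1.48%, so that a difference was not detectable at this depth. Without thinning the chondrocyte-like shares were 72.5% and 77.5% in Control and 71.8% and 72.6% in Fracture.

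**Figure D5:**
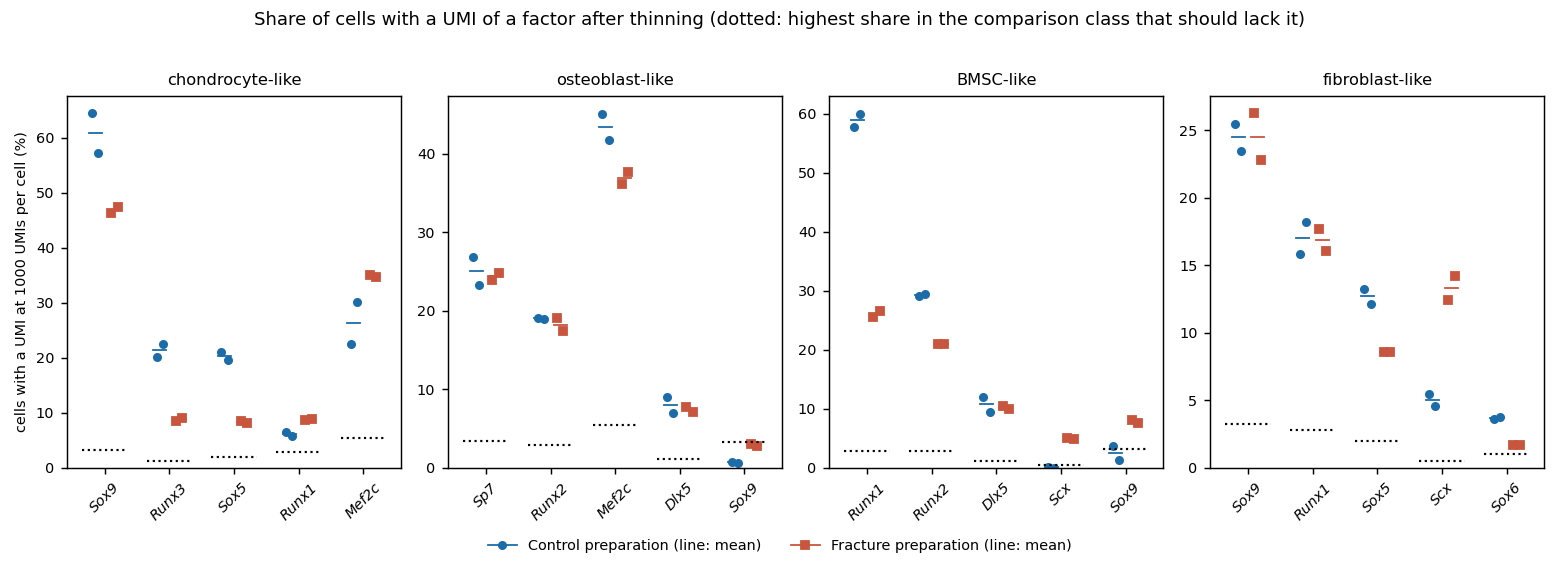
Share of cells in percent with at least 1 UMI of each factor after thinning to 1000 UMIs, in the 4 skeletal classes, with a point for each preparation and a dotted line at the highest share in a class that should lack the gene. Sox9, Sox5 and Runx3 lie lower in Fracture than in Control chondrocyte-like cells, and Scx in BMSC-like cells rises above the line in the Fracture group alone.

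The levels of the factors across the 6 classes and 4 preparations were compared by Pearson's r of log2(CPM + 1) over 24 sums, as a description, since the sums share libraries and depth. Among the factors Runx2 was most like Sp7 (r = 0.902), followed by Dlx5 (r = 0.864), and Sox5 was like Sox6 (r = 0.859). Mef2c and Scx were the most unlike pair (r = -0.511). Of 6572 genes ranked, those nearest to Sox9 were Comp (0.988), F13a1 (0.964) and Scin (0.945), and those nearest to Sox5 were Mgp (0.953), Mfge8 (0.939) and Crispld2 (0.926). Runx2 was nearest to Wnt4 (0.932), Ibsp (0.928) and Srpx (0.921), Sp7 to Gstz1 (0.938), Hpgd (0.914) and Runx2, and Dlx5 to Mpped2 (0.883), Wnt4 (0.870) and Shox2 (0.865). Runx1 was near to Epdr1 (0.922) and Fbln1 (0.911), and Runx3 to 1190002N15Rik (0.892), Grb14 (0.885) and Gas5 (0.880). Scx was nearest to Prrx2 (0.911), Pdpn (0.901) and Mmp2 (0.889), Sox6 to 2610018G03Rik (0.917), Phtf2 (0.916) and Susd5 (0.910), and Mef2c, the least matched, to Bcar3 (0.821), Lbh (0.805) and Gprc5c (0.790).

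Genes known to be controlled by the SOX factors gave 1 call in each direction in cartilage. Of the 11 tested in chondrocyte-like cells, Matn4, a matrilin of cartilage matrix, was called higher, with 82.0 and 63.0 CPM in Control and 443 and 405 CPM in Fracture, and Col27a1, a fibrillar collagen gene, lower (log2 fold change -0.36 ± 0.08, SE, edgeR adjusted p = 0.0299). These 2 of 11 stand beside the 37.1% of all genes called in the class. The median log2 fold change of the 11 was 0.12, beside -0.01 over all genes of the class. In osteoblast-like cells 8 of 11 were called higher and 0 lower (median 2.23, -0.00 over all genes), in BMSC-like cells 10 and 0 (2.62, -0.03) and in fibroblast-like cells 6 and 0 (1.74, -0.00), where 15.7%, 53.2% and 14.3% of all genes were called. Matn4 led in BMSC-like cells, with 8.82 and 5.23 CPM in Control and 256 and 233 CPM in Fracture, and the collagen IX chain gene Col9a1 in fibroblast-like cells, with 54.7 and 49.6 CPM in Control and 362 and 345 CPM in Fracture. These genes are abundant in cartilage, whose summed markers also stood higher in Fracture BMSC-like cells. In osteoblast-like cells that sum was 3230.3 and 2731 CPM in Control and 1885 and 1856 CPM in Fracture, with 4 of 6 markers higher. In fibroblast-like cells it was 14992 and 11673 CPM in Control and 12459.6 and 11433 CPM in Fracture, with 4 of 6 higher. The part of cartilage RNA in the values was not tested.

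Target genes of RUNX2 and SP7 were also followed. In chondrocyte-like cells 11 of 12 were called higher and 1 lower (median 1.26), beside 37.1% of all genes called in either direction. Sost, an osteocyte inhibitor of bone formation, was the lower gene, with 1.2 and 3.17 CPM in Control and 0.135 and 0.374 CPM in Fracture. Col1a2, a chain of type I collagen, rose from 2072 and 1164 CPM in Control to 9763 and 9774 CPM in Fracture, and Mmp13, a collagenase of hypertrophic cartilage, from 282 and 296 CPM in Control to 1154 and 1238 CPM in Fracture. The Mmp13-led subcluster made up 6.63% and 10.2% of the class in Control and 18.2% and 17.8% in Fracture, and its part in the Mmp13 value was not tested. In osteoblast-like cells 6 of 12 were called higher and 1 lower (median 0.57), in BMSC-like cells 5 and 3 of 11 (0.68) and in fibroblast-like cells 3 and 0 of 11 (0.62), beside 15.7%, 53.2% and 14.3% of all genes called. Phex, a gene of mineralizing osteoblasts and osteocytes, was called lower in BMSC-like cells, with 121 and 101 CPM in Control and 18.0 and 18.5 CPM in Fracture.

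Other factors of bone and cartilage were called in both directions, in classes where 37.1% (chondrocyte-like), 15.7% (osteoblast-like), 53.2% (BMSC-like) and 14.3% (fibroblast-like) of all genes were called, and a share near these is not a result about the list. Of bone factors, 3 were called higher and 5 lower of 16 tested in chondrocyte-like cells, 5 and 0 of 15 in osteoblast-like, 7 and 2 of 15 in BMSC-like and 1 and 4 of 15 in fibroblast-like cells. Msx2, a homeobox repressor, fell most in chondrocyte-like cells, from 1.6 and 1.46 CPM in Control to 0.462 and 0.374 CPM in Fracture, and its relative Msx1 in fibroblast-like cells, from 60.2 and 54.9 CPM in Control to 15.3 and 15.5 CPM in Fracture. Of cartilage factors, 6 were called higher and 4 lower of 14 in chondrocyte-like cells, 4 and 0 of 11 in osteoblast-like, 7 and 2 of 13 in BMSC-like and 3 and 3 of 12 in fibroblast-like cells. Nkx3-2, a repressor of chondrocyte hypertrophy, fell in chondrocyte-like cells from 2.23 and 2.20 CPM in Control to 0.585 and 0.384 CPM in Fracture, as did Foxa2, a factor of hypertrophic chondrocytes, from 51.7 and 44.4 CPM in Control to 19.1 and 18.6 CPM in Fracture. Barx2 rose in fibroblast-like cells from 12.0 and 6.01 CPM in Control to 102 and 98.7 CPM in Fracture.

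Factors of tendon and limb mesenchyme were called in both directions, to be read against the same shares of all genes. Of those tested, 7 were called higher and 1 lower of 11 in chondrocyte-like cells (median 1.44), 3 and 2 of 8 in osteoblast-like (0.29), 5 and 3 of 11 in BMSC-like (0.02) and 3 and 0 of 10 in fibroblast-like cells (0.35). Prrx1, a homeobox factor of limb mesenchyme, rose in chondrocyte-like cells from 16.4 and 7.81 CPM in Control to 64.4 and 66.2 CPM in Fracture, and Prrx2 in BMSC-like cells from 4.87 and 3.72 CPM in Control to 127 and 119.9 CPM in Fracture. Of tendon genes, 4 of 6 were called higher in chondrocyte-like, 1 of 5 in osteoblast-like, 5 of 6 in BMSC-like and 2 of 6 in fibroblast-like cells, with 1 called lower, in osteoblast-like cells, again beside 37.1%, 15.7%, 53.2% and 14.3% of all genes called in either direction. In BMSC-like cells Tnmd (tenomodulin) rose from 0.461 and 0.317 CPM in Control to 24.3 and 28.7 CPM in Fracture and Fmod (fibromodulin) from 24.9 and 9.98 CPM in Control to 707 and 689 CPM in Fracture, while Kera (keratocan) was at 0 UMIs in both Control preparations, which allows up to 0.197 and 0.238 CPM, and at 5.55 and 7.70 CPM in Fracture. The summed fibroblast markers stood higher in the same cells, as given above, and their part in these values was not tested.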

How the data were processed

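UMI counts per gene and cell barcode were deposited by the authors for 8 libraries, as whole numbers without normalization. The submitters' processing notes name bcl2fastq 2.19.1.403, UMI-tools 1.0.0, STAR 2.7.3a, featureCounts 1.6.4 and mm10. The study's methods name bcl2fastq, then fastp, then STARsolo with a GENCODE M23 annotation. How these accounts relate is not given in the sources used here. The smallest barcode held 1 UMI in the Control and 1929 UMIs in the Fracture libraries, so barcodes were not selected alike.

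Cells with 500 to 6000 genes and at most 25% mitochondrial counts (27 genes) and genes found in at least 3 barcodes were kept, which left 26357 genes. Libraries were integrated with Seurat 5.3.0 (2000 variable genes less cell cycle genes, the 10 factors and other listed factors, 1930 left, 30 dimensions) and clustered on 12 components at resolution 0.1. Integration reshapes the space in which cells are grouped and leaves the counts as they are. A single cluster carried the BMSC and the fibroblast markers together. All cells of these classes and of the osteoblast-like class were therefore clustered again (13 components, resolution 0.08) and the fibroblast-like cells were taken from that step, a choice made after the clusters had been seen. Chondrocyte-like cells were clustered again at resolution 0.2. A doublet caller marked 718 cells (1.58%, against 6% assumed) and under 0.5% of the cells in 2 libraries, where it did not work; called doublets were kept and left out as an alternative.

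Counts of a class were summed per preparation, with libraries of a preparation added together and at least 20 cells in each. They were tested with edgeR 4.0.16 (quasi-likelihood, TMM scaling, filterByExpr, limma 3.58.1), with the standard error taken from the fold change and the test statistic. Differences between classes were tested as class by group terms with the preparation as a block. DESeq2 1.42.0 served as an alternative. CPM values are plain counts scaled by the UMI total of the class, without TMM. Shares of cells were taken after thinning each cell to 1000 UMIs. Of the cells under that depth, 11 Control cells were left out in chondrocyte-like, 7 in osteoblast-like, 69 in BMSC-like and 7 in fibroblast-like cells, and 0 Fracture cells. Shares were compared with those of erythroid-like cells, or of endothelial-like cells for Runx1, Runx3 and Sox6, which blood cells use. Scripts were run with Python 3.11.15, scanpy 1.11.5 and R 4.3.3 and tested on simulated data. Depth limits precision as given with each value, and counting intervals cover counting error only.

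The 10 factors are named throughout. Of the listed bone, cartilage, tendon and target genes, at most 4 per list and class were named, those with the largest absolute log2 fold change among the called, and for each factor the 3 genes most like it among genes with a mean of at least 20 CPM. A gene that this rule would name is not reported here. The factors and lists were chosen with earlier results of these data known. Gene positions are from GENCODE M21, in which 26892 of the 28956 gene names were found, and start windows from RefSeq.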

Additional observations from a re-analysis of the deposited data

Results flagged for a closer look

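For 31 combinations of a factor and a pair of classes, the fracture difference in the first class differed from that in the second by the class by group term itself (edgeR, adjusted p under 0.05), and the values below are log2 differences, first class minus second. Between chondrocyte-like and osteoblast-like cells these were 0.77 for Mef2c, -1.46 for Runx3, -2.49 for Sox5, -1.51 for Sox6 and -2.89 for Sox9. Sox9 and Sox5 fell in the chondrocyte-like class and stood higher in osteoblast-like cells, although Sox5 was not called in the latter.

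Between chondrocyte-like and BMSC-like cells the differences were 2.39 for Runx1, 0.79 for Runx2, -1.09 for Runx3, -4.41 for Scx, -3.08 for Sox5, -1.50 for Sox6 and -3.04 for Sox9. Between osteoblast-like and BMSC-like cells they were -0.73 for Mef2c, 2.25 for Runx1, 0.70 for Runx2 and -4.47 for Scx. Between BMSC-like and fibroblast-like cells they were -1.64 for Runx1, -1.13 for Runx2, -0.96 for Runx3, 4.20 for Scx, 2.28 for Sox5, 2.14 for Sox6 and 2.58 for Sox9. Each of these 18 values rests on the BMSC-like class, whose markers differed between the groups as given in the report. Without integration the Sox5 differences turned and those of Scx, of Sox6, and of Runx2 against chondrocyte-like and osteoblast-like cells no longer passed. The turned Sox5 values rest on very few Fracture UMIs in BMSC-like cells.

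Between chondrocyte-like and fibroblast-like cells the differences were 0.76 for Runx1, -2.05 for Runx3, -0.80 for Sox5 and 0.64 for Sox6, and between osteoblast-like and fibroblast-like cells -1.41 for Mef2c, 1.70 for Sox5, 2.15 for Sox6 and 2.43 for Sox9.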

How the results depend on the processing

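Of the values of single factors in the 4 classes under other settings, 475 kept direction and side of the threshold, 38 gained and 33 lost the call, and 13 turned. Leaving out 1 preparation changed the number of genes called from 3446 to 9656 in BMSC-like, 329 to 9103 in chondrocyte-like, 13 to 4549 in fibroblast-like and 0 to 4484 in osteoblast-like cells, and the number of factors called from 2 to 8 in chondrocyte-like, 0 to 7 in osteoblast-like and 0 to 8 in fibroblast-like cells. In the subclusters the ranges were 0 to 8 (Chrdl2-led), 0 to 4 (Serpina1a-led), 0 to 4 (Mmp13-led), 2 to 7 (Aldh1a3-led), 0 to 9 (Slc40a1-led), 0 to 5 (proliferating-like) and 1 to 8 (Mmp9-led). For differences between classes they were 1 to 8 (chondrocyte-like minus fibroblast-like), 2 to 7 (osteoblast-like minus BMSC-like) and 2 to 8 (osteoblast-like minus fibroblast-like). These ranges of subclusters and class pairs stand without the share of all genes called in the same fits, and are not read as results about the factors. The difference in the share of fibroblast-like cells with Sox9 and Runx2 ran from 0.659 to 1.71 percentage points. The sign turned within -1.60 to 0.18 for Dlx5, -0.11 to 0.33 for Runx1 and -0.44 to 0.19 for Sox9 in fibroblast-like, -0.17 to 0.0866 for Sox6 in chondrocyte-like, -0.0845 to 0.95 for Sp7 in BMSC-like and -0.27 to 0.0817 for Sp7 in osteoblast-like cells.

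Same-numbered preparations did not deviate together (correlations of 0.0107 to 0.0674, against a limit of 0.1), so the numbers were not taken as pairs. With a replicate block 4253 genes were called in chondrocyte-like, 1078 in osteoblast-like and 538 in fibroblast-like cells. It left 0 factors called in fibroblast-like cells. In the Chrdl2-led, Serpina1a-led, Mmp13-led and proliferating-like cells it left 2, 0, 1 and 1, beside a share of all genes that is not given. It ended the calls of Runx1 in osteoblast-like and proliferating-like, Sox5 and Sox6 in fibroblast-like, Runx3 in Serpina1a-led, Mmp13-led, Aldh1a3-led and proliferating-like, Sp7 in Chrdl2-led and Serpina1a-led, Scx in Chrdl2-led, Sox9 in Aldh1a3-led and Dlx5 in Slc40a1-led cells. Without integration 150 genes and 0 factors were called in BMSC-like and 2970 genes and 4 factors in fibroblast-like cells, and 7 factors differed between osteoblast-like and fibroblast-like cells. Its log2 values turned to 0.0397 (Runx2), 0.29 (Runx3), -2.46 (Sox5) and 0.75 (Dlx5) in BMSC-like and -0.0939 (Runx2) and -0.0166 (Runx3) in osteoblast-like cells, and to 1.39 and 0.0075 for Sox5 in chondrocyte-like minus BMSC-like and minus fibroblast-like, -0.0063 for Runx2 in osteoblast-like minus BMSC-like and -1.38 for Sox5 in BMSC-like minus fibroblast-like cells. In fibroblast-like cells 1 factor was called with DESeq2 size factors, without called doublets or without the cells of highest doublet score, 6 (3583 genes) without a filter on low counts and 4 at resolution 0.2, which also turned Sox6 in chondrocyte-like cells to 0.0547. The turned Sox5 values that involve BMSC-like cells rest on very few Fracture UMIs. The share with Sox9 and Runx2 differed by -2.72 points at resolution 0.2 in chondrocyte-like cells. Without thinning the differences were -2.83 in chondrocyte-like, 14.0 in osteoblast-like, 20.6 in BMSC-like and 15.4 in fibroblast-like cells, and at 2000 UMIs -2.63, 1.63 and 2.54 in the first 3. The causes were not tested. Plain library sizes, leaving out the cells of highest doublet score, and the leave-one-out and block fits in subclusters, and the division of dpMSC-like cells by their name without integration were chosen after seeing the data. Depth limits the shares, since 1000 UMIs miss most transcripts of a factor.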

Other observations

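Several of the factors were also found in cells outside the skeletal lineages. In endothelial-like cells Runx2, Runx3, Sp7, Sox6, Sox9, Dlx5 and Scx were called higher (edgeR), where 34% of the 14327 genes tested were called. Their fold changes were 3.38, 2.83, 3.52, 2.90, 6.41, 3.11 and 7.33 in this order. Runx1, Sox5 and Mef2c were not called there. In smooth muscle-like cells Runx1 and Sox9 were called higher and Sox5, Sox6 and Mef2c lower, where 26.9% of 10257 genes were called. In smooth muscle-like cells, where Mef2c is a known factor of muscle genes, it stood at 495 and 539.8 CPM in the Control and 324 and 273 CPM in the Fracture preparations. The same cells held 92.0 and 99.6 CPM of Sox5 in Control and 65.0 and 65.2 CPM in Fracture, 39.0 and 38.8 CPM of Sox6 in Control and 10.9 and 6.18 CPM in Fracture, and 90.0 and 97.1 CPM of Runx1 in Control and 205 and 143 CPM in Fracture. Beside these, their own 5 markers summed to 30988 and 31845 CPM in Control and 16851 and 18770.3 CPM in Fracture, the chondrocyte markers to 859 and 130.3 CPM in Control and 8969 and 3773 CPM in Fracture, and the erythroid markers to 69.6 and 146 CPM in Control and 5230.4 and 5824 CPM in Fracture. Their part in the values was not tested.

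Runx1 in granulocyte-like cells, a blood class in which the gene is known to act, was at 485 and 511 CPM in Control and 209 and 182 CPM in Fracture. B cell-like cells held 207 and 204 CPM of Mef2c, a known factor of B cells, in Control and 280.1 and 251 CPM in Fracture, where the class held 12 cells in each preparation. These blood classes remained after bead depletion and were not compared by a test.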
